A study of Mus musculus with 8 samples.

Results

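Of the 26263 genes counted in these libraries, 52 encode subunits of the receptors for glutamate, GABA or glycine. The rule took every gene with the symbol of one of the families, which are the AMPA (*Gria*), kainate (*Grik*), delta (*Grid*), NMDA (*Grin*) and metabotropic (*Grm*) glutamate receptor genes, the GABA-A (*Gabr*) and GABA-B (*Gabbr*) receptor genes and the glycine receptor genes (*Glra*, *Glrb*). RNA was sequenced from embryonic stem cells (ESCs) and from the neural precursor cells (NPCs) made from them after 12 days of *in vitro* corticogenesis, to follow gene expression through neural commitment. Both stages were taken from male hybrid lines of reciprocal crosses between C57BL/6J (B) and JF1 (J) mice, line BJE2 for B/J and line JBE6 for J/B, with 2 replicates in each of the 4 groups and thus 8 libraries. ESCs were kept in medium with LIF, BMP4 and an inhibitor of GSK3-β, and the NPC cultures were grown on Matrigel in a defined medium with B27 and the BMP inhibitor dorsomorphin homolog 1. Each cross is represented by 1 cell line, so that cross and line cannot be told apart. No source says that the replicates were separate cultures, so the p-values measure only the spread between these libraries, which may be technical.

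AMPA, kainate and NMDA receptors are cation channels of 4 subunits that open on binding glutamate and carry fast excitatory transmission, while metabotropic glutamate receptors act through G proteins. GABA-A and glycine receptors are chloride channels of 5 subunits and the GABA-B receptor is a G protein-coupled dimer. Several of these receptors appear on progenitors and young neurons before synapses form, where GABA can depolarise the cell. In stem cells and other non-neuronal cells, the repressor REST holds many neuronal genes silent by binding a long DNA element named RE1.

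The members lie on many chromosomes, but 18 of them fall into 6 clusters in which neighbours are at most 1000 kb apart in GRCm39. A search for RE1 was made because many members were close to absent in ESCs. RefSeq promoter windows of GRCm38.p6, from 250 bases before to 50 bases after the start, were found for 36 members (43 windows). The RE1 consensus of 21 letters, of which 19 are fixed and the middle 2 free to vary, was searched on both strands with at most 2 mismatches, and 10 of all 32841 windows (0.0304%) held it. *Gria2*, which encodes the AMPA receptor subunit GluA2, was the sole member with such a match, and every other member window had at least 6 mismatches. The match lies 174 to 154 bases before the start, at chr3:80802985-80803013 with 4 flanking bases on each side, and is given first on the strand of the gene with the match in capitals and then as read on the strand of the motif.
Gria2, gene strand: ccaaAGCGCTGTCCGCGGTGCTAAAatcg
Gria2, motif strand: TTTAGCACCGCGGACAGCGCT
Counted from the 5′ end of the motif, the mismatches are C3T and C21T, with the motif's base first. A letter match is not a measurement of binding.

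The *Gabrp* promoter is printed because *Gabrp*, which encodes the GABA-A receptor pi subunit, gave one of the highest NPC levels of the family but is best known from epithelial tissues. The stretch from 250 to 51 bases before its start, at chr11:33579008-33579207 on the minus strand of GRCm38.p6, holds 1 CG pair, given in capitals.
Gabrp: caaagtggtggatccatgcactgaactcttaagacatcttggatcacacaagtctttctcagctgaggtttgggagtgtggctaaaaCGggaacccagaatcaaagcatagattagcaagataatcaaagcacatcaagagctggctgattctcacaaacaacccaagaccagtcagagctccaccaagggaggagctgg
The whole window held 4 CG pairs, against 26 in that of *Gria2*, a median of 11 over the member windows and a median of 7 over all windows.

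Library totals over genes ran from 22537138 to 32706015 counts, so that 1 count stood for 0.0306 to 0.0444 CPM (counts scaled to library size) on these totals. Levels below are CPM after TMM normalisation, a scaling that sets the bulk of genes equal between libraries. Values of 4 libraries are always given in the order B/J replicate 1, B/J replicate 2, J/B replicate 1 and J/B replicate 2. Summed over 8 markers, pluripotency genes fell from 5300–8936 CPM in ESCs to 167–412 CPM in NPCs, and 8 of 8 passed the test as lower. Of 10 neural precursor markers, 9 were higher in NPCs. The NPC libraries also held markers of other cells, with 10 of 12 neuron markers, 9 of 9 trophoblast markers and 8 of 9 fibroblast and mesenchyme markers higher than in ESCs. Of 10 glia markers 4 were higher and 3 lower, and of 8 markers of GABAergic cells and the ventral telencephalon 5 were higher and 1 lower. The trophoblast sum was 3828, 2052, 2151 and 1466 CPM in NPCs against 13.5–83.4 CPM in ESCs, where *Tpbpa*, *Pappa2*, *Prl2a1* and *Ctsj* were at 0 counts. The neuron sum was 406, 1489, 1149 and 2046 CPM in NPCs, of which B/J replicate 1 lay within the ESC range of 364–552 CPM. The sole neuron marker called lower, *Stmn2*, had means of 224 (ESC) and 80.6 CPM (NPC), and without it the sum was 378, 1394, 1079 and 1916 CPM in NPCs and 133–277 CPM in ESCs, with no overlap. The part of these cells in the receptor results was not tested.

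Transcripts of receptor subunits were more abundant in NPCs than in ESCs in most families. Summed over all members, the level was 137.9, 108.3, 133.4 and 140.3 CPM in ESCs and 217, 449, 352 and 727 CPM in NPCs, a 3.36-fold difference between the stage means with no overlap. In these bulk samples, a change in the number of cells of a type and a change in RNA per cell cannot be told apart. The AMPA sum had means of 5.27 and 66.0 CPM (12.5-fold), but without NPC J/B replicate 2 its ratio was 7.19-fold. The glycine receptor sum had means of 1.31 and 14.4 CPM (11-fold, 9.43-fold without that library and 16.5-fold without ESC J/B replicate 1) and the delta sum 0.615 and 6.01 CPM (9.76-fold and 7.16-fold). The ratios of the metabotropic (6.79-fold), kainate (5.06-fold), GABA-A (4.43-fold) and NMDA (3.87-fold) sums were lower over all libraries. The GABA-B sum was 69.3 ± 15.0 CPM in ESCs and 88.0 ± 41.1 CPM in NPCs (SD, n = 4 each), and its stages overlapped. These ratios of sums are descriptions and were not tested.

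Gene by gene, 43 of the 52 members passed the filter on low counts. Of these, edgeR's quasi-likelihood test, adjusted after Benjamini and Hochberg over all 16399 genes, called 27 higher and 3 lower in NPCs and left 13 uncalled. Over all genes tested, 37.5% were called higher and 31.9% lower, and the median log2 fold change was 0.17. The filter shapes the members' counts, since 21 of the 43 passed through NPC libraries alone, and 20 of these were called higher. The median of 3.08 over the 43 members, also with the 2 tested members at 0 ESC counts set to their lower bounds, rests on that selection. The other 22 reached the filter level of 0.370 CPM in at least 2 ESC libraries, and 7 of them were called higher and 3 lower, with a median of 0.85. Of all 13814 genes that reached this level in ESCs, 29.7% were called higher and 37.9% lower, with a median of -0.15, so that the share called higher was near the background for the members already read in ESCs. The 9 members not tested were *Gabra6*, *Gabrb1*, *Gabrd*, *Gabrq*, *Gabrr2*, *Gabrr3*, *Glra3*, *Glra4* and *Grin3b*, of which *Gabra6* and *Glra4* had no count in any library. All 4 NPC libraries lay above all 4 ESC libraries for 22 of the members tested, and below them for 2, against 35.3% and 31.2% of all genes tested.

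**Figure D1:**
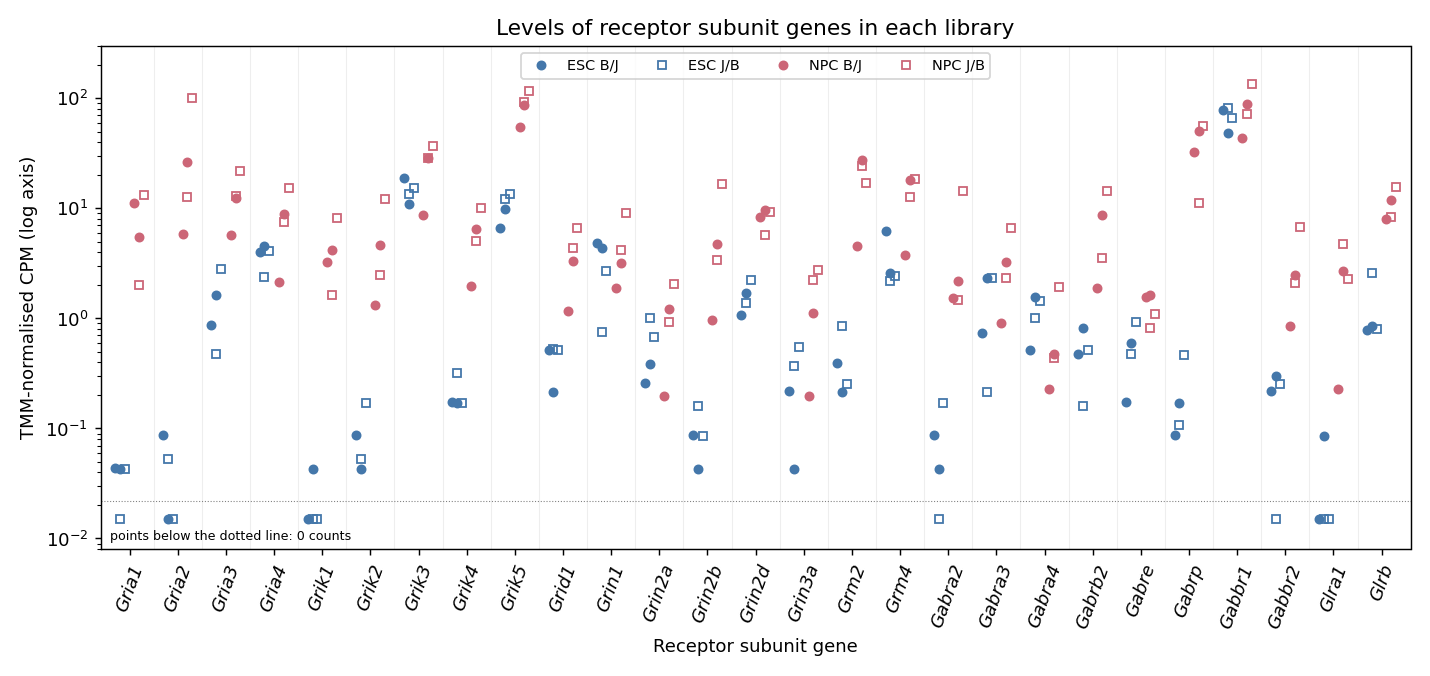
TMM-normalised CPM on a log axis of 27 members that reached a mean of 1 CPM in a stage, with 1 point per library (circles B/J, squares J/B, blue ESC, red NPC) and libraries at 0 counts drawn below the dotted line. *Gria1*, *Gria2*, *Grik1* and *Glra1* lie at or near 0 counts in ESCs, whereas *Gabbr1* and *Grik3* are well read at both stages.

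Scaling moves all genes together, and with library totals or with the housekeeping genes *Gapdh*, *Gusb* and *Tbp* the median of all genes became 0.65 and 0.80. The share of calls that were higher in NPCs then rose from 54.0% to 70.1% and 74.99%, and the members called became 30 higher and 2 lower, and 31 higher and 1 lower, with member medians of 3.56 and 3.72. In the libraries numbered 1 alone, 15 of the 33 members tested there were called higher, and in those numbered 2 alone 29 of 41. No share of all genes called is given for these fits.

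Among the AMPA receptor genes, *Gria1*, *Gria2* and *Gria3* rose, and *Gria4* was the subunit most read in ESCs. *Gria2*, whose product limits the calcium permeability of the channel, was read at 0.0868, 0, 0.0533 and 0 CPM in ESCs and at 5.89, 26.6, 12.6 and 100.03 CPM in NPCs. J/B replicate 2 was far above the other NPC libraries, and all NPC libraries were above all ESC libraries. With 3 counts in all ESC libraries and 4633 in all NPC libraries, the ratio was 1003-fold (95% exact interval 343 to 4865, counting error only) and was 430-fold without NPC J/B replicate 2, and the fitted log2 fold change was 9.69 ± 1.22 (SE, edgeR, adjusted p = 2.87e-04). A fitted change from so few counts depends on the prior count of the fit.

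*Gria1*, which encodes GluA1, was read at 0.0434, 0.0428, 0 and 0.0426 CPM in ESCs and at 11.2, 5.55, 2.02 and 13.4 CPM in NPCs. B/J replicate 1 and J/B replicate 2 were the highest, and the stages did not overlap. The ratio was 229.9-fold (95% exact interval 78.4 to 1116), with an edgeR log2 fold change of 7.79 ± 0.93 (adjusted p = 2.25e-04). *Gria3*, which encodes GluA3, went from 0.868, 1.62, 0.48 and 2.81 CPM to 5.72, 12.4, 12.8 and 21.8 CPM, again without overlap (log2 fold change 3.11 ± 0.58, edgeR adjusted p = 0.00204). *Gria4*, which encodes GluA4, was read at 3.99, 4.53, 2.40 and 4.09 CPM in ESCs and at 2.16, 8.97, 7.57 and 15.3 CPM in NPCs. Its lowest NPC library, B/J replicate 1, was below every ESC library, and the difference did not pass the test (1.10 ± 0.49, edgeR adjusted p = 0.0767), although it passed without that library (1.44, adjusted p = 0.0144). Its call also changed with the scaling, and it was called higher with library totals (adjusted p = 0.0247), by DESeq2 (0.0400), with a replicate block (edgeR, 0.0429) and in the libraries numbered 2 alone (0.00518).

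Divided by transcript length, the make-up of the AMPA genes differed between the stages. *Gria4* held 73.5% ± 10.8 of the summed CPM per kb in ESCs and 18.2% ± 7.15 in NPCs (SD, n = 4 each). *Gria2* went from 0.469% to 30.5%, with 51.1% in J/B replicate 2 and 14.1% in B/J replicate 1. Its ESC share rested on 3 counts and was 0.306% without ESC J/B replicate 1. *Gria1* held 49.3% in B/J replicate 1 but 6.63% to 13.0% in the other NPC libraries. *Gria3* held 25.5% and 31.0%, and its ranges overlapped. The leading AMPA subunit thus varied among the NPC libraries, being *Gria1* in B/J replicate 1, *Gria3* in J/B replicate 1 (44.8%) and *Gria2* in B/J replicate 2 (34.2%) and J/B replicate 2. By the union of exons, *Gria3* and *Gria2* were level in B/J replicate 2 (31.2% and 31.1%). The AMPA totals of the NPC libraries were 25.0, 53.6, 35.1 and 150.5 CPM.

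**Figure D2:**
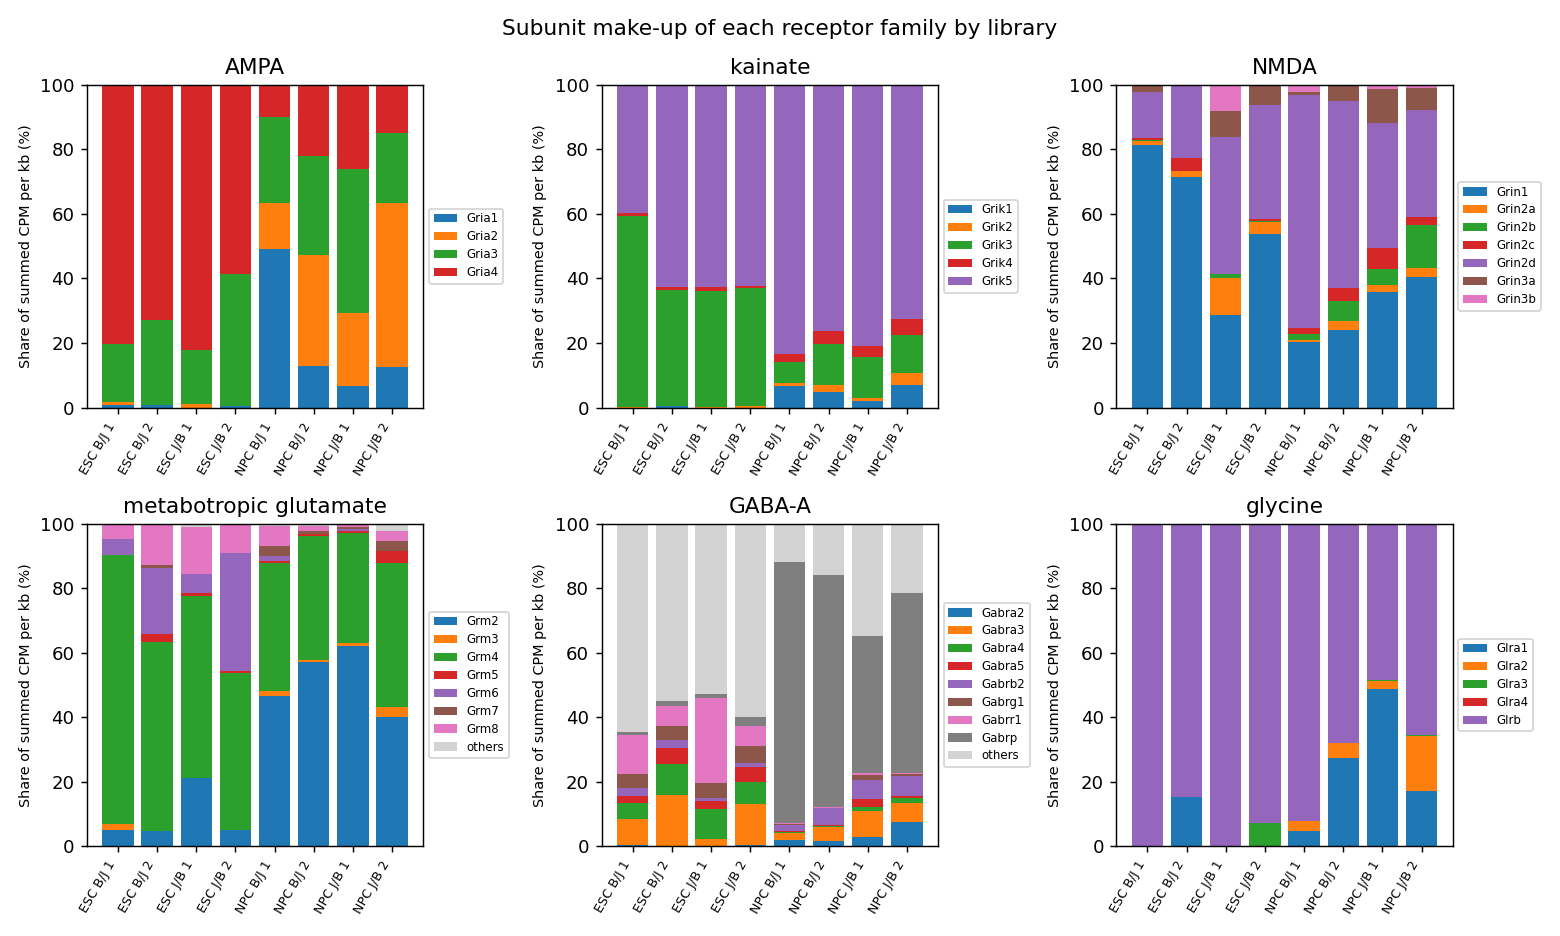
Share of each subunit gene in the summed CPM per kb of its receptor family (percent), 1 stacked bar per library, for 6 families. *Gria4* and *Grm4* take 73.5% and 61.7% of their families in ESCs, and *Grik5*, *Gabrp* and *Grm2* take 78.3%, 62.9% and 51.5% in NPCs.

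Kainate receptor genes were led by *Grik5* and *Grik3* at both stages. *Grik5*, which encodes the high-affinity subunit GluK5 that needs a GluK1 to GluK3 partner to form a channel, was read at 6.60, 9.83, 12.2 and 13.5 CPM in ESCs and at 55.4, 88.0, 93.3 and 117 CPM in NPCs. Its NPC libraries were far above all ESC libraries and close together, and its log2 fold change of 3.08 ± 0.22 (8.46-fold) had the smallest adjusted p of the members (edgeR, 2.98e-05). Per kb of canonical transcript it was the member with the highest NPC level, at 18.6 CPM per kb, but per kb of the union of exons it was at 9.51 CPM, after *Gabrp* at 11.1 CPM. *Grik3*, which encodes GluK3, was read at 19.1, 10.9, 13.6 and 15.5 CPM in ESCs and at 8.66, 28.5, 28.8 and 37.3 CPM in NPCs. B/J replicate 1 lay below every ESC library and the other 3 NPC libraries above them, and the difference did not pass (0.74 ± 0.38, edgeR adjusted p = 0.111). Without that library the call was reached (1.05, adjusted p = 0.0106), as it was with library totals (1.23, adjusted p = 0.0222).

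The remaining kainate genes were near 0 in ESCs. *Grik1*, which encodes GluK1, had 1 count over the 4 ESC libraries and 566 over the NPC libraries, where it was read at 3.25, 4.21, 1.64 and 8.27 CPM. The ratio was 368-fold with a 95% exact interval of 65.7 to 14543, and edgeR gave an adjusted p of 4.36e-04. *Grik2*, which encodes GluK2, was read at 0.0428 to 0.171 CPM in ESCs and at 1.34, 4.66, 2.51 and 12.2 CPM in NPCs (log2 fold change 5.69 ± 0.84, edgeR adjusted p = 6.13e-04). *Grik4*, which encodes GluK4, was read at 0.171 to 0.320 CPM and at 1.96, 6.48, 5.09 and 10.1 CPM (4.76 ± 0.58, edgeR adjusted p = 2.34e-04). No NPC library of these genes overlapped the ESC libraries. By length, *Grik5* held 56.8% ± 11.4 of the kainate sum in ESCs and 78.3% ± 4.82 in NPCs, and *Grik3* 42% ± 11.5 and 11% ± 2.91.

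Among the delta receptor genes, *Grid1*, whose product binds cerebellins at synapses, was read at 0.521, 0.214, 0.533 and 0.512 CPM in ESCs and at 1.17, 3.32, 4.35 and 6.69 CPM in NPCs. The stages did not overlap, and the gene rose by 2.99 ± 0.52 on the log2 scale (edgeR adjusted p = 0.00131).

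In the NMDA receptor family the obligatory subunit gene *Grin1* did not pass the test, while *Grin2b*, *Grin2d*, *Grin2c* and *Grin3a* rose. *Grin1* was read at 4.82, 4.36, 0.746 and 2.73 CPM in ESCs and at 1.88, 3.22, 4.22 and 9.01 CPM in NPCs. Both B/J NPC libraries lay below both B/J ESC libraries, and both J/B NPC libraries above both J/B ESC libraries. Over both crosses the log2 fold change was 0.53 ± 0.48 (edgeR adjusted p = 0.341), within B/J -0.85 (adjusted p = 0.309) and within J/B 1.91 (adjusted p = 0.0475). The test of the difference between the crosses gave an unadjusted p of 0.0218 and an adjusted p of 0.9999 (edgeR). Exons of *Grin1* overlap those of *Grin1os* and *Lrrc26* on the other strand over 1314 bp, and none of the sources used here says whether the counting used the strand. The same limit holds for *Gabra5* (714 bp shared), *Gabrb1* (497 bp), *Gabrg3* (366 bp), *Gria4* (154 bp), *Grik5* (145 bp) and *Gabra4* (101 bp).

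*Grin2b*, the GluN2 subunit typical of the embryonic brain, was read at 0.0868, 0.0428, 0.160 and 0.0853 CPM in ESCs and at 0.968, 4.76, 3.4 and 16.8 CPM in NPCs. The NPC libraries spread 17.4-fold but all lay above the ESC libraries (log2 fold change 5.86 ± 0.88, edgeR adjusted p = 6.93e-04). *Grin2d*, also an early GluN2 subunit, was read at 1.09, 1.71, 1.39 and 2.26 CPM and at 8.34, 9.73, 5.78 and 9.27 CPM. Its NPC libraries were close together, and it rose by 2.36 ± 0.34 on the log2 scale (edgeR adjusted p = 5.47e-04). *Grin2a*, the GluN2 subunit of the mature forebrain, was read at 0.260, 0.385, 1.01 and 0.682 CPM and at 0.199, 1.21, 0.921 and 2.07 CPM, overlapped and did not pass (0.96 ± 0.65, edgeR adjusted p = 0.217). *Grin3a*, which encodes a subunit that lowers calcium entry, was read at 0.217, 0.0428, 0.373 and 0.554 CPM and at 0.199, 1.12, 2.23 and 2.75 CPM. It passed (2.35 ± 0.70, edgeR adjusted p = 0.0178) although B/J replicate 1 lay within the ESC range, and leaving out ESC B/J replicate 2, NPC B/J replicate 2 or NPC J/B replicate 2 ended the call (adjusted p = 0.0622, 0.0938 and 0.0503), as did a replicate block within each stage (0.156). *Grin2c* passed at a mean of 0.615 CPM in NPCs (3.08, edgeR adjusted p = 0.0152). By length, *Grin1* held 81.3%, 71.4%, 28.8% and 53.7% of the NMDA sum in ESCs and 20.4%, 24.1%, 35.7% and 40.5% in NPCs. *Grin2d* held 14.5%, 22.3%, 42.5% and 35.3% in ESCs and 72.1%, 57.9%, 38.8% and 33.1% in NPCs. The shares of both genes thus separated by stage within B/J alone. In NPC J/B replicate 2 *Grin1* led by the canonical transcript, *Grin2d* by the union of exons (38.2%, against 26.3% for *Grin1*) and *Grin2b* with no division by length (41.3%). The mean share of *Grin1* in NPCs moved from 30.2% to 19.5% with the union of exons.

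Among the metabotropic glutamate receptor genes, *Grm2* and *Grm4* rose from low or moderate levels and *Grm6* fell. *Grm2*, which encodes an inhibitory group II receptor, was read at 0.391, 0.214, 0.853 and 0.256 CPM in ESCs and at 4.53, 27.6, 24.1 and 17.1 CPM in NPCs. B/J replicate 1 was the lowest NPC library, yet above all ESC libraries (log2 fold change 5.48 ± 0.71, edgeR adjusted p = 3.39e-04). *Grm4*, which encodes a presynaptic group III receptor, was read at 6.25, 2.61, 2.19 and 2.43 CPM and at 3.76, 18.0, 12.8 and 18.5 CPM. One NPC library lay within the ESC range, and the gene passed over both crosses (2.03 ± 0.53, edgeR adjusted p = 0.00973), but not in the libraries numbered 1 alone (0.89, adjusted p = 0.488). Of 19 alternatives, 17 kept the call of *Grm4*. The share of *Grm2* in the metabotropic sum per kb was 8.99% ± 8.21 in ESCs (4.89% without J/B replicate 1) and 51.5% ± 9.99 in NPCs, and that of *Grm4* 61.7% ± 14.9 and 39.3% ± 4.42.

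*Grm7* and *Grm3* passed at NPC means of 0.508 and 0.579 CPM (edgeR adjusted p = 0.00589 and 0.0161), and *Grm5*, the group I receptor of forebrain progenitors and neurons, at 0.936 CPM (adjusted p = 0.0339). In *Grm5* the level in J/B replicate 2 was 2.68 CPM, against 0.0854, 0.543 and 0.435 CPM in the other NPC libraries. *Grm6*, the receptor by which ON bipolar cells of the retina sense glutamate, was read at 0.347, 0.855, 0.213 and 1.71 CPM in ESCs and at 0.142, 0.0638, 0.205 and 0.0323 CPM in NPCs. All NPC libraries were below all ESC libraries, and it fell by 2.71 ± 0.88 on the log2 scale (edgeR adjusted p = 0.0243). It passed in neither cross alone (edgeR adjusted p = 0.125 within B/J and 0.0751 within J/B), and leaving out ESC B/J replicate 2, ESC J/B replicate 2, NPC B/J replicate 1, NPC B/J replicate 2 or NPC J/B replicate 2 ended the call (adjusted p = 0.0566 to 0.145), as did a block for the replicate number within each stage (adjusted p = 0.420) and housekeeping scaling (0.0579), while with library totals it was at the threshold (0.0499). *Grm8* did not pass (0.54, edgeR adjusted p = 0.447).

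Of the GABA-A receptor genes, *Gabrp*, *Gabra2* and *Gabrb2* were among those that rose, and *Gabrr1* and *Gabrg1* fell. *Gabrp*, the pi subunit gene, was read at 0.0868, 0.171, 0.107 and 0.469 CPM in ESCs and at 32.8, 50.3, 11.2 and 56.5 CPM in NPCs. J/B replicate 1 was the lowest NPC library and B/J replicate 1 the second lowest, and the stages were far apart (7.54 ± 0.73, edgeR adjusted p = 8.63e-05). It held 62.9% ± 17 of the GABA-A sum per kb in NPCs, from 42.5% in J/B replicate 1 to 80.8% in B/J replicate 1, against 1.59% in ESCs. Per kb of canonical transcript its NPC mean of 11.4 CPM came after those of *Grik5* and *Gabbr1* (12.7), and per kb of the union of exons it came first. Summed by list, the trophoblast markers and the fibroblast and mesenchyme markers given above exceeded their ESC range in all NPC libraries. Among the NPC libraries, however, the trophoblast sum was lowest (1466 CPM in J/B replicate 2) where *Gabrp* was highest. The fibroblast and mesenchyme sum was lowest (747 CPM in J/B replicate 1) where *Gabrp* was lowest. It was highest (1833 CPM) in B/J replicate 1, where *Gabrp* was at 32.8 CPM. The part of such cells in the *Gabrp* level was not tested.

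*Gabra2* and *Gabrb2* encode an alpha and a beta subunit, classes found in most synaptic GABA-A receptors. *Gabra2* was read at 0.0868, 0.0428, 0 and 0.171 CPM in ESCs and at 1.54, 2.17, 1.46 and 14.4 CPM in NPCs (5.56 ± 1.0, edgeR adjusted p = 0.00166). *Gabrb2* was read at 0.477, 0.812, 0.160 and 0.512 CPM and at 1.91, 8.71, 3.58 and 14.5 CPM (3.86 ± 0.74, edgeR adjusted p = 0.00229). The stages did not overlap in either gene, and J/B replicate 2 was the highest library in both.

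*Gabra3*, another alpha subunit gene, was read at 0.738, 2.35, 0.213 and 2.34 CPM in ESCs and at 0.911, 3.29, 2.35 and 6.62 CPM in NPCs. The stages overlapped, and the difference did not pass (1.11 ± 0.80, edgeR adjusted p = 0.241). *Gabra3* stayed uncalled in 16 of 19 alternatives and was called higher in the rest. *Gabre*, the epsilon subunit gene, was read at 0.174, 0.599, 0.480 and 0.938 CPM and at 1.57, 1.63, 0.819 and 1.10 CPM. It missed the threshold (1.23 ± 0.52, edgeR adjusted p = 0.0659) and stayed uncalled in 12 alternatives. In others it was called higher, among them with library totals (1.69, edgeR adjusted p = 0.0223). Without ESC B/J replicate 2 its log2 fold change was 1.80. *Gabra4* was read at 0.521, 1.58, 1.01 and 1.45 CPM in ESCs and at 0.228, 0.479, 0.435 and 1.94 CPM in NPCs, where J/B replicate 2 stood above every ESC library and the other 3 below them (-0.82 ± 0.64, edgeR adjusted p = 0.284). *Gabra5* (-1.03, edgeR adjusted p = 0.205) and *Gabrg3* (0.92, adjusted p = 0.234) were not called.

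The rho subunit gene *Gabrr1*, known from the retina, was the member that fell most. It was read at 0.694, 0.599, 1.55 and 0.725 CPM in ESCs and at 0.114, 0.0638, 0.102 and 0.0323 CPM in NPCs, without overlap (fell by 3.37 ± 0.62 on the log2 scale, edgeR adjusted p = 0.00180). It took 12.0%, 6.43%, 26.2% and 6.16% of the GABA-A sum per kb in ESCs, a mean of 12.7% that was 8.21% without J/B replicate 1 and 6.35% with no division by length, and at most 0.561% in the NPC libraries. *Gabrg1* was read at 0.521, 0.812, 0.586 and 1.28 CPM in ESCs and at 0.0854, 0.0638, 0.588 and 0.937 CPM in NPCs. Only its B/J libraries separated by stage, and it fell by 1.69 on the log2 scale (edgeR adjusted p = 0.0228), by 3.08 within B/J (adjusted p = 0.0148) and by 0.30 within J/B (adjusted p = 0.731). It was not called in the libraries numbered 1 alone (-1.05) or in those numbered 2 alone (-1.44). The *Gabrg1* call was lost with library totals (adjusted p = 0.0733), with housekeeping scaling (0.117), with a replicate block within each stage (0.0828) and without any 1 of 6 libraries, among them NPC J/B replicate 1 (0.0796). Leaving out each library in turn gave 1 to 3 members called lower. The count was 1 (*Gabrr1*) without ESC B/J replicate 2, ESC J/B replicate 2, NPC B/J replicate 1, NPC B/J replicate 2 or NPC J/B replicate 2.

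Calls differed among GABA-A genes that are neighbours. On chromosome 5, *Gabrg1*, *Gabra2*, *Gabra4* and *Gabrb1* lie within 1412.9 kb, where *Gabra2* rose, *Gabrg1* fell and *Gabra4* was not called. *Gabrb1*, next to *Gabra4*, was under the filter, with 0 counts in ESCs and 75 in NPCs (at least 16.2-fold higher, or at least 4.48-fold without J/B replicate 2, which was at 1.91 CPM). No gene was called in the cluster of the X chromosome (*Gabre*, *Gabra3* and *Gabrq*, within 586.6 kb). On chromosome 4, *Gabrr1* fell beside *Gabrr2*, which had 0 counts in ESCs and 9 in NPCs. *Gria2* and *Glrb* lie within 294.1 kb on chromosome 3, and both rose.

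For the GABA-B receptor, *Gabbr1* encodes the subunit that binds GABA and *Gabbr2* the one that couples to the G protein. *Gabbr1* was the best read member of ESCs, at 79.3, 49.0, 81.9 and 66.4 CPM, and was read at 43.6, 88.6, 71.8 and 136 CPM in NPCs. The stages overlapped, and the difference did not pass (0.26 ± 0.30, edgeR adjusted p = 0.455). *Gabbr2* was read at 0.217, 0.299, 0 and 0.256 CPM in ESCs and at 0.854, 2.49, 2.10 and 6.75 CPM in NPCs, with no overlap (3.83 ± 0.82, edgeR adjusted p = 0.00393). Even so, *Gabbr1* made up 99.6% of the GABA-B sum per kb in ESCs and 96.5% in NPCs. The direction of *Gabbr1* changed with the libraries used and with a replicate block within each stage, where it was called lower (-0.53, edgeR adjusted p = 0.0165). It was called higher in the libraries numbered 2 alone (0.94, edgeR adjusted p = 3.63e-04) and had a negative value in those numbered 1 alone (-0.52, adjusted p = 0.158). With the scaling to housekeeping genes it was called higher (0.94, edgeR adjusted p = 0.0426).

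Of the glycine receptor genes, the 3 tested were called higher, against 37.5% of all genes, and *Glra1* and *Glra2* passed the filter through NPC libraries alone. *Glrb*, the beta subunit that anchors the receptor to gephyrin, was read at 0.781, 0.855, 2.61 and 0.810 CPM in ESCs and at 7.97, 12.0, 8.36 and 15.5 CPM in NPCs (3.21 ± 0.45, edgeR adjusted p = 4.92e-04). *Glra1*, the alpha subunit of the adult spinal cord and brainstem, had 2 counts in ESCs and was read at 0.228, 2.71, 4.71 and 2.29 CPM in NPCs. This was a ratio of 113-fold (95% exact interval 31.0 to 937, and 74.6-fold without NPC J/B replicate 1) with an edgeR adjusted p of 0.00309, and B/J replicate 1 was by far the lowest NPC library. *Glra2*, the alpha subunit typical of the embryonic brain, had 0 counts in ESCs and was read at 0.171, 0.511, 0.281 and 2.55 CPM in NPCs, at least 24.2-fold higher, or at least 9.24-fold without J/B replicate 2 (edgeR adjusted p = 0.00842). *Glrb* held 92.2%, 68.1%, 48.6% and 65.4% of the sum per kb in the NPC libraries and *Glra1* 4.70%, 27.4%, 48.8% and 17.3%, so that the pair was level in J/B replicate 1. By the union of exons, the mean share of *Glra1* moved from 24.5% to 37.4%. *Glra3* had 2 counts in ESCs and 6 in NPCs.

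Each cross was also fitted on its own. Within B/J, edgeR called 18 members higher (30.1% of all genes tested) and 2 lower (25.6%), and within J/B 26 higher (29.1%) and 1 lower (25.3%). The 21 members that passed the filter through NPC libraries alone are among those tested, so the filter shapes these counts too. Counts within a cross were not split by the way members passed the filter. The 18 called higher within B/J were all called higher within J/B. The 8 that reached the threshold within J/B and not within B/J were *Gabbr2*, *Glra2*, *Grin1*, *Grin2c*, *Grm3*, *Grm4*, *Grm5* and *Grm7*, and without NPC J/B replicate 2 the J/B count was 15. *Grin3a*, called higher over both crosses, passed in neither alone (edgeR adjusted p = 0.0945 within B/J and 0.0626 within J/B). The sign of the fitted change differed between the crosses for *Gabra5* and *Grin1*, among others. No member passed the test of the difference between the crosses, for which edgeR, DESeq2 and limma-voom called 0 members, and 2 (*Grin1* and *Gabrg1*) had an unadjusted p under 0.05. Over all genes, edgeR called 0% here, with 573 genes at an unadjusted p under 0.05, DESeq2 called 11 and limma-voom 0.

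**Figure D3:**
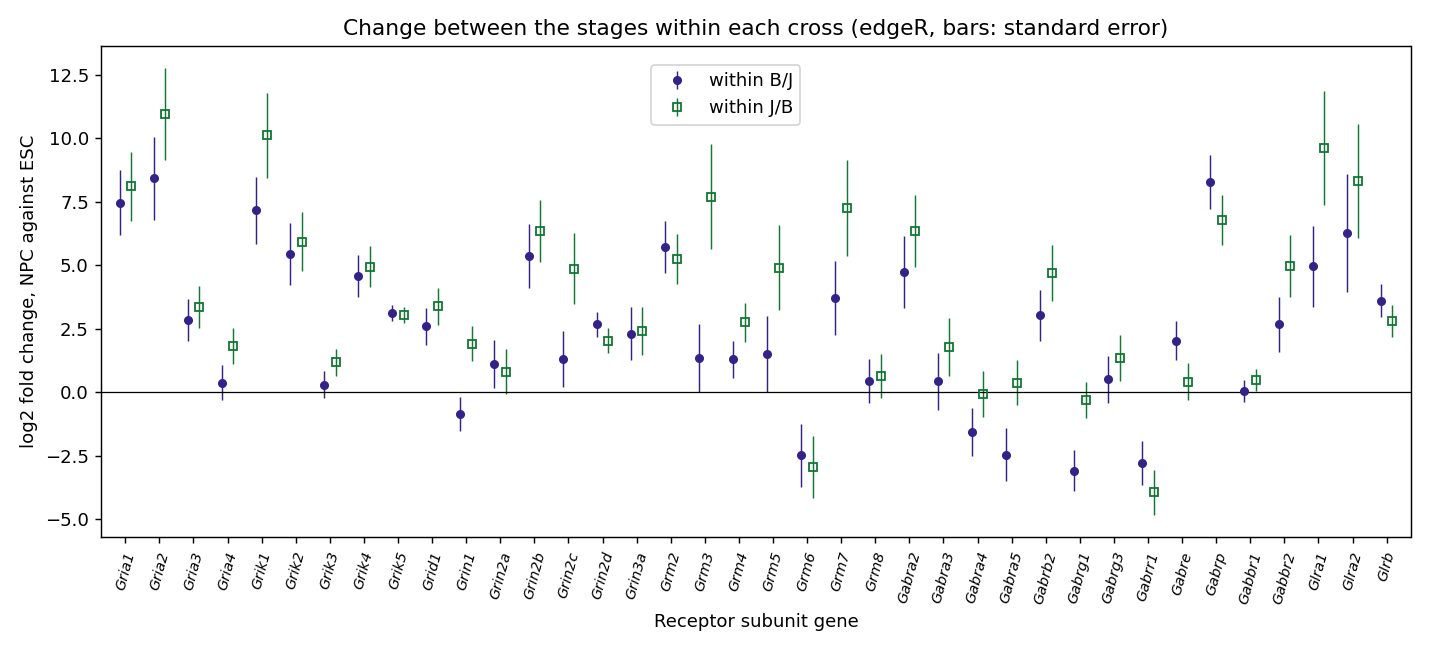
Fitted log2 fold change of NPC against ESC (vertical axis, edgeR, bars are standard errors) for 38 of the tested members within B/J (filled circles) and within J/B (open squares). *Grik5* lies at 3.12 and 3.04 in the crosses, while *Grin1* lies at -0.85 and 1.91.

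J/B and B/J libraries of the same stage did not differ in any member by the test. In NPCs, 0 members were called by edgeR, DESeq2 or limma-voom, and *Gabrg1* (3.27 higher in J/B on the log2 scale, edgeR unadjusted p = 0.00424, adjusted p = 0.734) and *Gabra5* (3.10, unadjusted p = 0.0171, adjusted p = 0.754) had an unadjusted p under 0.05. Over all genes, edgeR called 0.0061% lower and 0% higher in J/B NPCs, DESeq2 called 70 genes and limma-voom 1. In ESCs, 0 members were called by the 3 tools, where edgeR called 0% of all genes, DESeq2 called 10 genes and limma-voom 0. In ESCs, 1 member had an unadjusted p under 0.05. Replicate spread limits these comparisons, which rest on 2 libraries a group.

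The 4 NPC libraries were spread widely in most receptor genes. Over the 29 members with an NPC mean of at least 1 CPM, the highest library was a median of 6.08-fold above the lowest, against 1.56-fold over the 14049 tested genes that reached that mean, a set not matched to the members in level. J/B replicate 2 was the highest library for 25 of the 29 members and B/J replicate 1 the lowest for 23, against 30.2% and 34.7% of genes. Replicate 2 was above replicate 1 in both crosses for 26 members, against 33.1% of genes. The neuron marker sum had the same highest and lowest library, at 2046 and 406 CPM, and the trophoblast sum the reverse, at 1466 and 3828 CPM. The glia sum was also highest in J/B replicate 2 (167 CPM), and the neural precursor sum was also lowest in B/J replicate 1 (653 CPM). The other 6 members, *Gria1*, *Grik1*, *Grin2d*, *Gabra2*, *Gabre* and *Gabrp*, had their lowest level in J/B replicate 1, where the fibroblast and mesenchyme sum was also lowest (747 CPM, against 1833, 1358 and 1806 CPM). Libraries were made with 1 of 2 mRNA kits and run on 1 of 2 instruments, and none of the sources used here says which library had which, so that no value within a kit can be given.

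**Figure D4:**
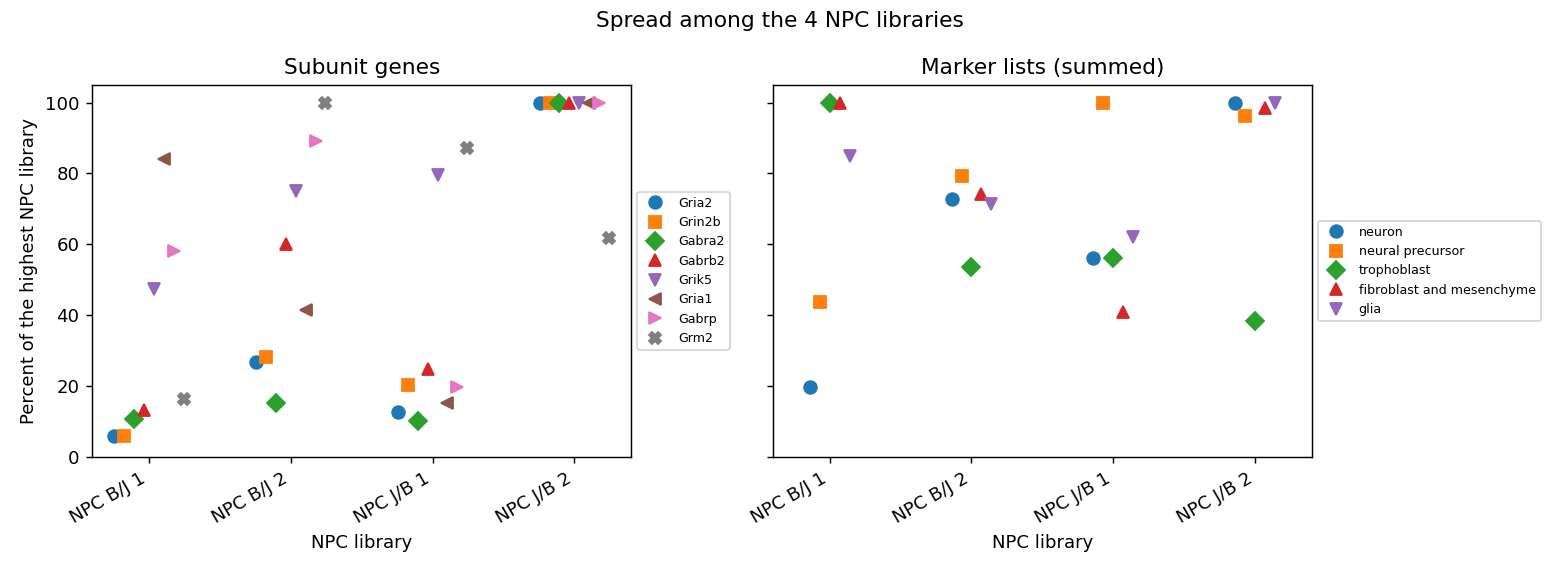
Level in each NPC library as a percent of the highest NPC library, for 8 subunit genes (left) and for the summed CPM of 5 marker lists (right), with 1 symbol per gene or list. J/B replicate 2 is highest for 7 of the 8 genes and for the neuron and glia lists. B/J replicate 1 is highest for the trophoblast list and the fibroblast and mesenchyme list, and lowest for the neuron and neural precursor lists.

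Genes that make and move the transmitters were looked at beside the receptors. Of 12 genes of GABA and glycine synthesis and transport, 10 were called higher by edgeR and 1 lower (median log2 fold change 3.69), against 37.5% and 31.9% of all genes. Of these 12, 5 passed the filter through NPC libraries alone, and of the other 7 there were 5 called higher, against 29.7% of all genes at the filter level in ESCs. Of 11 tested genes of glutamate synthesis and transport 4 were higher and 2 lower (median 0.38, against 0.17 over all genes), and of the 9 at the filter level in ESCs 2 were higher. The called genes with the largest levels were *Gldc*, of glycine breakdown (fell by 2.27 on the log2 scale, edgeR adjusted p = 2.69e-04), and *Aldh5a1* and *Abat*, of GABA breakdown (1.05 and 3.51, adjusted p = 0.00289 and 1.16e-04). On the glutamate side they were *Slc38a2* and *Slc38a1*, glutamine carriers (-0.88 and 0.42, edgeR adjusted p = 0.00954 and 0.0328), and *Slc1a3*, a glial glutamate transporter (1.92, adjusted p = 0.00117). The genes that follow in this paragraph were picked for their role after their values were seen. The GABA-making enzymes *Gad1* (1.32 to 14.3 CPM) and *Gad2* (0.300 to 13.7 CPM) and the vesicular GABA and glycine carrier *Slc32a1* (0.484 to 7.12 CPM) rose by 3.37, 5.46 and 3.86 on the log2 scale (edgeR adjusted p = 0.00376, 1.67e-04 and 8.90e-04). *Slc17a6*, the vesicular glutamate carrier VGLUT2, had 1 count in the ESC libraries and a mean of 19.2 CPM in NPCs (edgeR adjusted p = 3.36e-04), while *Slc17a7*, the carrier VGLUT1, did not pass (3.27 and 2.24 CPM, adjusted p = 0.432). *Slc1a2*, an astroglial glutamate transporter, rose from 0.0534 to 42.2 CPM (edgeR adjusted p = 4.22e-05). *Gls2*, a glutaminase that forms glutamate, fell by 2.68 on the log2 scale (edgeR adjusted p = 5.20e-05).

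The chloride gradient decides whether GABA-A and glycine receptors excite or inhibit. Of the 5 tested chloride transporters, *Slc12a5*, the extruder KCC2 of neurons, was the sole one called (29.7% of all genes at the filter level in ESCs were called higher) and went from 0.825, 1.07, 1.07 and 2.05 CPM in ESCs to 6.64, 12.7, 10.7 and 27.9 CPM in NPCs without overlap (3.48 ± 0.45, edgeR adjusted p = 3.22e-04). *Slc12a2*, the importer NKCC1 and also picked after its values were seen, was read at means of 101 CPM in ESCs and 76.4 CPM in NPCs and did not pass (-0.41, edgeR adjusted p = 0.0958).

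Genes for proteins that traffic and anchor the receptors were counted in the same way. Of 29 auxiliary and scaffold genes of AMPA, kainate and NMDA receptors, 22 were called higher and 1 lower (median 2.05), and of 14 of GABA and glycine receptors 10 were higher and 0 lower (median 1.80), against 37.5% and 31.9% of all genes. Through NPC libraries alone, 9 of the 29 and 4 of the 14 passed the filter, and 13 of the other 20 and 7 of the other 10 were called higher, against 29.7% of all genes at the filter level in ESCs. *Dlg4*, the postsynaptic scaffold PSD-95, rose from 7.32 to 65.5 CPM (3.12, edgeR adjusted p = 4.36e-04), *Dlg3*, the scaffold SAP102, from 31.2 to 65.5 CPM (1.10, adjusted p = 3.42e-04) and *Homer3*, which links metabotropic receptors to the scaffold, from 32.2 to 49.4 CPM (0.62, adjusted p = 0.0148). The sole gene of this list that fell was *Pick1*, an AMPA receptor partner, from 44.4 to 24.0 CPM (-0.89, edgeR adjusted p = 0.00111). On the inhibitory side, *Nlgn2*, an adhesion protein of GABA synapses, went from 45.1 to 164.7 CPM (1.85, adjusted p = 6.01e-04) and *Gabarap*, which binds GABA-A receptors, from 57.1 to 127 CPM (1.17, adjusted p = 8.15e-05). *Kctd12*, a GABA-B receptor partner, rose from 8.41 to 125.0 CPM (3.83, edgeR adjusted p = 2.58e-05), with 222 CPM in NPC B/J replicate 1 and 87.3 to 103 CPM in the other NPC libraries, the reverse of the order of most receptor genes.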

How the data were processed

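Paired-end mRNA libraries of ESCs and NPCs (B/J and J/B, 2 replicates each) were prepared with 1 of 2 Illumina-compatible kits. The authors ran TopHat2 against an mm39 genome in which strain SNPs were masked, using a refGene-based annotation, and kept proper pairs with samtools at a mapping quality of at least 20. The authors deposited raw counts per gene, without normalisation and summed over both alleles. HTSeq, DESeq2 and edgeR are named in the submitters' processing notes, while none of the sources used here states the counting settings or whether strand was used. Reads with no gene (5.76% to 10.9% of each library) or with several genes (at most 0.554%) were left out.

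Counts were tested in R 4.3.3 with edgeR 4.0.16 after filterByExpr (minimum count 10) and TMM normalisation, whose factors were 0.820 to 0.885 in ESCs and 1.14 to 1.21 in NPCs. One mean per group was fitted with robust quasi-likelihood dispersion, and the p-values of all 16399 genes tested received Benjamini-Hochberg adjustment (threshold 0.05). Replicates of a group differed by far more than sampling noise (chi-square per degree of freedom 64.5 to 90.7). Alternatives were DESeq2 1.42.0, limma-voom (limma 3.58.1), other scalings, other filters, replicate blocks and leaving out each library; the block within each stage, the fits of number 1 or number 2 libraries alone and the union of exons as length were chosen after seeing the data. Where leaving out a library left a group with 1, its spread was taken from the other groups.

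The members and gene lists were chosen with earlier results of these data known. Values per library are given for members that reached a mean of 1 CPM in a stage, and a few members are not reported here by name. From the other lists, at most 3 called genes with the largest mean CPM were named by rule. Intervals and floors (3 counts over the 4 ESC libraries; 95% exact) cover counting error only. Gene positions and lengths were from GENCODE vM39 (GRCm39, the assembly of mm39), with the canonical transcript as length, and promoter sequences from RefSeq on GRCm38.p6.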

Additional observations from a re-analysis of the deposited data

Results flagged for a closer look

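In groups of 4 libraries of 1 stage, a highest or lowest library that stood apart from the rest by Dixon's criterion was found in 9 of the 54 groups examined. Chance gives about 1 in 20 for values on a continuous scale, which does not hold for the 3 of these groups with at most 3 counts in all (*Gria1*, *Grik1* and *Glra1* in ESCs). In ESCs, the library J/B replicate 1 stood apart for *Gria1* (0 CPM, with 1 count in each of the other libraries), *Grik4* (0.320 CPM) and *Glrb* (2.61 CPM). The ESC library B/J replicate 2 stood apart for *Grik1* (0.0428 CPM, 1 count), *Glra1* (0.0855 CPM, 2 counts), both with 0 counts in the other libraries, and *Grid1* (0.214 CPM, the lowest). The ESC library B/J replicate 1 was highest for *Grm4* (6.25 CPM). In NPCs, J/B replicate 2 stood above the others for *Gabra2* (14.4 CPM) and *Gabra4* (1.94 CPM).

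The stage effect on *Grin1* differed between the crosses by 2.76 on the log2 scale, being higher within J/B (edgeR unadjusted p = 0.0218, adjusted p = 0.9999), with both B/J NPC libraries below and both J/B NPC libraries above the ESC libraries of their cross.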

How the results depend on the processing

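Depth limits the ESC side, where 1 to 3 counts or none were read for several members, and replicate spread limits the NPC side. Across 508 alternative values of 27 members given by library, 470 kept their direction and side of the threshold, 22 gained a call, 8 lost it and 8 reversed. *Gria1*, *Gria2*, *Gria3*, *Grik1*, *Grik2*, *Grik4*, *Grik5*, *Grin2b*, *Grin2d*, *Grm2*, *Gabra2*, *Gabrb2*, *Gabrp*, *Glra1* and *Glrb* were called in every alternative that tested them. In the libraries numbered 1 alone 33 members were tested, against 43 in the fit of all libraries, which bears on the counts that follow. Members called higher over both crosses numbered 23 to 30 when each library was left out in turn, and 15 in the libraries numbered 1 alone. Members called lower numbered 1 to 3 when each library was left out, 1 with *Gapdh*, *Gusb* and *Tbp* scaling, 1 with number 1 alone and 0 with a mean of at least 1 CPM, a filter that leaves these low genes out. Leaving out each library gave 12 to 20 higher and 0 to 2 lower within B/J, and 15 to 29 higher and 0 to 2 lower within J/B, and the filter of 1 CPM gave 0 lower in each cross.

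The replicate numbers did not pair the stages. Deviations of number 1 from number 2 correlated across genes between the crosses within ESCs (r = 0.52) and within NPCs (r = 0.59) but at 0.05 to 0.09 between the stages. With a replicate block, 30 members were higher and 3 lower, and with a replicate block within each stage 24 and 2. Within B/J, that block gave 4 lower members. With it, *Gabbr1* reversed to -0.53 (edgeR adjusted p = 0.0165), *Grik3* to -0.0081 and *Grin2a* to -0.21. With number 1 alone they were -0.52, -0.0205 and -0.23, and *Grid1* and *Gabbr2* lost their calls (edgeR adjusted p = 0.0853 and 0.0888). When each library was left out, *Gabbr1* ranged from -0.0442 (without NPC B/J replicate 2) to 0.47, with -0.00087 without NPC J/B replicate 2. For these reversals the cause was not tested.

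The *Grik5* share moved from 56.8% to 41.1% in ESCs and from 78.3% to 69.9% in NPCs with no division by length, and to 43.2% and 71.2% with the union of exons.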
